A study of Mus musculus with 9 samples.

Results

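The genes described are 10 genes of brown and white fat, Ucp1, Cidea, Plin1, Adipoq, Fabp4, Lep, Cfd, Retn, Pparg and Car3, read on microarrays of postnatal day 3 (PND3) mouse pups. The series compared mice homozygous for the Glis3zf mutation (Glis3zf/zf, called mutant) with wild-type (WT) mice, all of the C57BL/6 strain. Glis3 is a zinc finger transcription factor. Each genotype was 1 pool made from 2 pups, with the tissue labelled as pancreas. Both pools shared each of 2 Agilent arrays, on which Cy3 and Cy5 marked opposite genotypes. The probes were found by gene symbol, with the older symbol Plin counted as Plin1. They are 14 of the 41136 probes and 10 of the 28777 genes on the array. The 10 genes were chosen with their ratios at PND3 already known, so their ratios are given as descriptions, and with 1 pool per genotype there is no test at this age. The E15.5 arrays of the series, 4 mutant and 3 WT samples, carry probe sets that were not paired with gene names and were not used here.

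Fat cells store triglyceride in lipid droplets and release it as fatty acids when signalled to. White fat cells hold their energy store in a large droplet and secrete hormones such as leptin. Brown fat cells, plentiful in newborn mice, hold many small droplets and many mitochondria and burn fatty acids to make heat. The heat comes from uncoupling protein 1, the product of Ucp1, which lets protons return across the inner mitochondrial membrane without making ATP. The nuclear receptor PPAR gamma, the product of Pparg, directs the formation of both kinds of fat cell and switches on many of the other genes named here.

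The 2 arrays gave 4 channels in all, with mutant and WT RNA read on each array. Per channel, 72.8% to 76.6% of spots were flagged as well above background, and no spot was saturated. A gene counted as measured when its probe was well above background in at least 1 pool on both arrays, which held for 20923 genes and for 9 of the 10 fat genes. Signals are the scanner software's processed signals, and ratios are log2 of mutant over WT after background correction and loess normalization, so -1 means 2-fold lower in the mutant pool. The SD given with a ratio is over the 2 arrays and measures technical spread alone. Genes of the labelled tissue were dim. Of 15 acinar cell markers 12 were measured, none above a signal of 1000, and of the islet hormone genes Ins1, Gcg and Ppy were not measured. Ins2, Iapp and Sst were measured but dim, with Ins2, an insulin gene, at 92.7 and 85.1 in the mutant pool, against 103 and 86.7 in the WT pool. In contrast, 20 of 20 kidney nephron markers were measured, 17 of them above 1000, so the arrays go against the label pancreas as the main source of this RNA. The fat gene values below are those of these 2 pools, whatever tissue they held, and in such mixed RNA fewer fat cells and less RNA per fat cell cannot be told apart.

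The fat genes were lower in the mutant pool. All 9 measured genes had ratios below 0 on both arrays, which held for 37.8% of all genes measured. None had ratios above 0 on both, against 30.9% of all genes. A gene was called lower when its ratio was 2-fold or more below WT on both arrays. Ucp1 and Car3 were called lower, as were 0.158% of all genes, and none of the 9 was called higher, as were 0.0335% of all genes (0.191% in either direction). At 1.5-fold on both arrays 5 of the 9 were lower, Ucp1, Car3, Cidea, Plin1 and Adipoq, against 0.626% of all genes. That background depends on the processing, since 131 genes were 1.5-fold lower here and 409 with the scanner's own ratios. The number of fat genes among them was 5 either way. Because the genes were chosen on this contrast, these shares are printed beside the counts and support nothing. The median ratio of the 9 was -0.85, against -0.01 for all genes, and without the brown fat genes Ucp1 and Cidea the median of the other 7 was -0.27. The 9 genes formed a set of 5, those just named, with ratios of -1.17 to -0.85, and the other 4, with ratios of -0.27 to -0.13.

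**Figure D1:**
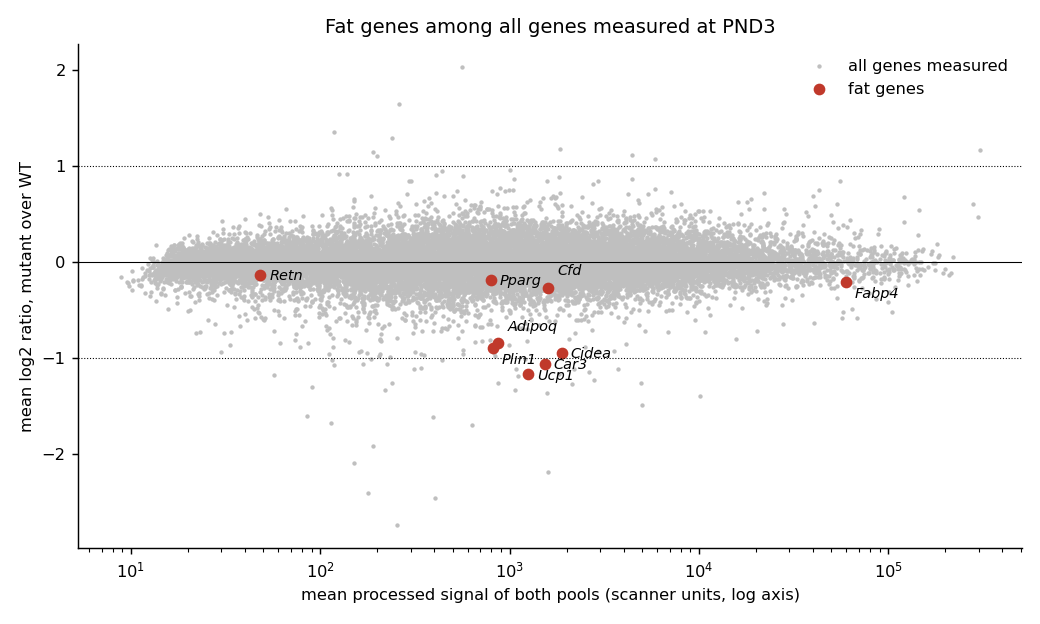
Mean log2 ratio of mutant over WT on both arrays (vertical axis) against the mean processed signal of both pools (horizontal log axis) for all 20923 genes measured (grey) and 9 fat genes (red), with dotted lines at 2-fold. Ucp1, Car3, Cidea, Plin1 and Adipoq lie between -1.17 and -0.85, and the other 4 lie between -0.27 and -0.13.

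Of the brown fat genes, Ucp1 encodes the uncoupling protein that makes brown fat produce heat. Its processed signals were 789.9 and 684 in the mutant pool, against 1900.0 and 1643 in the WT pool. Both mutant values lay below both WT values. The ratio was -1.17 ± 0.06 (SD, n = 2 arrays), or 2.26-fold lower, the 25th lowest of the 20923 genes. The arrays gave -1.13 and -1.21. Cidea encodes a protein of the lipid droplet that is abundant in brown fat. It gave 1363 and 1179.8 in the mutant pool, against 2653 and 2347 in the WT pool. The mutant values again lay below the WT values, and the ratio was -0.95 ± 0.09 (SD, n = 2 arrays), or 1.93-fold lower. The array with mutant RNA in Cy5 put it at -1.01 and the other array at -0.88, so it was not called lower at 2-fold.

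The sequences of some probes are shown to give the bases that the ratios read. The probes were not placed on transcripts. The Ucp1 and Adipoq probes belong to the genes that were 1.5-fold lower. Both Fabp4 probes shown belong to a gene that was lower by less than 1.5-fold. Each is 60 bases long, as deposited, and is written in lower case:
Ucp1: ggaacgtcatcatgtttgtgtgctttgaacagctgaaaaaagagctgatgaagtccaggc
Adipoq: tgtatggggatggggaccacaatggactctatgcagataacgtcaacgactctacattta
Fabp4, brightest probe: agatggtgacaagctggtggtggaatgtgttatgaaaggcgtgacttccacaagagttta
Fabp4, dimmest probe: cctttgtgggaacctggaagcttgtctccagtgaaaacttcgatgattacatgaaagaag

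Among genes common to brown and white fat, Plin1 encodes perilipin 1, which coats lipid droplets and controls access of lipases to the fat inside. Its signals were 597 and 509 in the mutant pool, against 1112 and 1039.7 in the WT pool. All mutant values were below all WT values, with a ratio of -0.90 ± 0.17 (SD, n = 2 arrays). The arrays gave -0.78 and -1.02. Adipoq encodes adiponectin, a hormone secreted by fat cells. It gave 658 and 555 in the mutant pool and 1166 and 1107 in the WT pool. Its ratio was -0.85 ± 0.12 (SD, n = 2 arrays), or 1.80-fold lower, with -0.77 and -0.93 on the arrays.

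Car3 encodes carbonic anhydrase 3, a cytosolic enzyme plentiful in fat, skeletal muscle and liver. Its brighter probe gave 1015 and 916 in the mutant pool, against 2273 and 1922 in the WT pool. The mutant values were below the WT values, with a ratio of -1.06 ± 0.03 (SD, n = 2 arrays), or 2.09-fold lower. Its dimmer probe gave 69.9 and 66.6 in the mutant pool and 75.4 and 70.2 in the WT pool, so the pools were close, with ratios of -0.11 and -0.05 on the arrays. With the mean of both probes in place of the brighter one, Car3 stood at -0.57 and was no longer called lower. The 2 Car3 probes share no run longer than 4 bases on the same strand. The first 30 bases of each are shown because these probes disagree:
Car3, brighter probe: acatgcaaccgcagtgccttttgacatgat
Car3, dimmer probe: ggctttctgaccaccgagagacaacgtttt

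Fabp4 encodes the fatty acid binding protein of fat cells, which is also made by endothelium of small vessels and by macrophages. It was by far the brightest of the fat gene probes, although probes differ in binding and their signals do not rank transcripts. The brightest probe gave 61589 and 49999 in the mutant pool, against 65301 and 61711 in the WT pool. The nearest mutant and WT values were almost equal, and the ratio was -0.21 ± 0.04 (SD, n = 2 arrays). A second bright probe had ratios of -0.30 and -0.10 on the arrays, and the dimmest probe -0.38 and -0.45. All 3 probes were thus lower in the mutant pool, by less than 1.5-fold.

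Cfd encodes complement factor D, also called adipsin, a protease that fat cells secrete. It gave 1579 and 1292 in the mutant pool and 1776 and 1728 in the WT pool. The ratio was -0.27 ± 0.26 (SD, n = 2 arrays), with -0.09 where mutant RNA was in Cy3 and -0.45 where it was in Cy5. Among 5912 genes with signals of 500 to 3000, 95% had array ratios within 0.33 of each other, and Cfd, at 0.36, lay outside that range. The size of its difference therefore depends on the array.

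Pparg was read by 10 spots of 1 probe on each array, which gives a measure of the spread between spots. Its mean signals were 783 and 699.9 in the mutant pool, against 900.3 and 796 in the WT pool. Where mutant RNA was in Cy3 the 10 spot ratios ran from -0.28 through a median of -0.22 to -0.08, and on the other array from -0.28 through -0.19 to -0.07. Every spot was below 0 on both arrays. The mean ratio was -0.19 ± 0.01 (SD, n = 2 arrays), or 1.14-fold lower, with an SD between spots of 0.08 and 0.07. Pparg was thus slightly lower on both arrays. Of the other genes common to fat, Car3 by its brighter probe was 2.09-fold, Plin1 1.86-fold and Adipoq 1.80-fold lower. Cfd was 1.21-fold and Fabp4 1.16-fold lower, closer to Pparg.

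**Figure D2:**
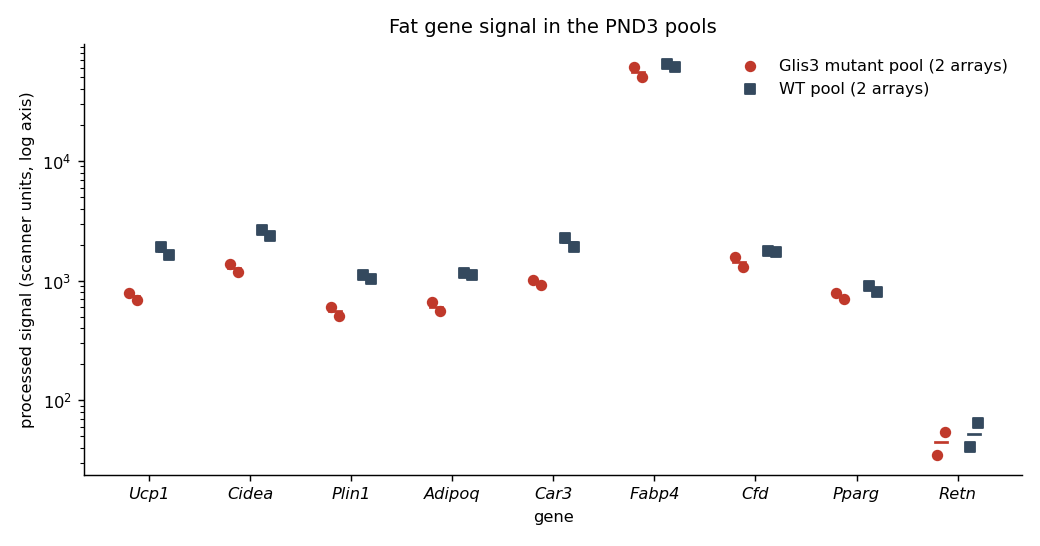
Processed signal (vertical log axis, scanner units) of 9 fat genes by the brightest probe, with the mutant pool (red circles) left of the WT pool (dark squares) and a bar at the mean of 2 arrays. In 8 of the 9 genes both mutant values lie below both WT values, Fabp4 only narrowly, and the Retn values of the pools overlap.

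The hormones of white fat were at or near background. Lep encodes leptin, and its probe was spotted 10 times per array. Only 2 spots of the array that had mutant RNA in Cy3, and 3 of the other, were well above background, in the mutant pool and likewise in the WT pool. Median spot signals were 5.06 and 5.57 in the mutant pool and 6.35 and 3.72 in the WT pool. Lep was thus not measured, and no fold is given. Retn encodes resistin, a hormone of mouse white fat. Its brighter probe gave 34.6 and 54.1 in the mutant pool, against 40.5 and 63.96 in the WT pool. The pools overlap, since the arrays differed more than the pools did. The ratio was -0.13 ± 0.06 (SD, n = 2 arrays), and the other Retn probe had -0.04 and -0.08 on the arrays. The 2 Retn probes share a run of 22 bases, shown in capitals, so they are not independent readings:
Retn, brighter probe: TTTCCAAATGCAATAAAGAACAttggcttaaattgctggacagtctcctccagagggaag
Retn, dimmer probe: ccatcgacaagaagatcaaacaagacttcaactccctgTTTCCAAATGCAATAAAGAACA

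**Figure D3:**
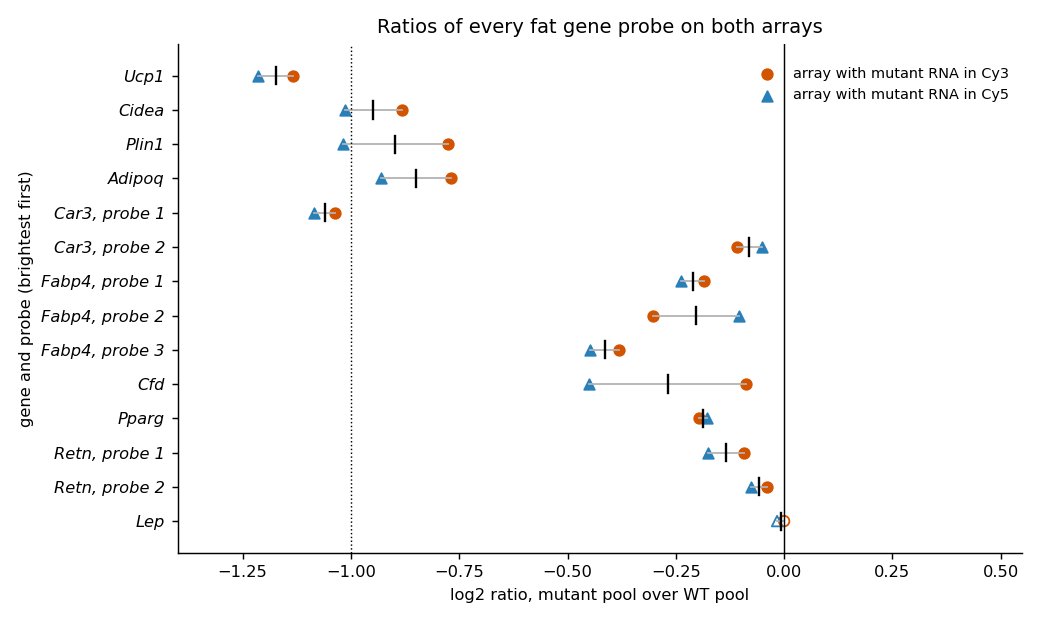
Log2 ratio of mutant over WT (horizontal axis) for each of the 14 fat gene probes, with mutant RNA in Cy3 (circles) and in Cy5 (triangles), with a black bar at the mean. Filled symbols passed the filter, the open Lep symbols did not, and the dotted line marks 2-fold lower. Ucp1 and the brighter Car3 probe lie beyond that line on both arrays, and the dimmer Car3 probe lies close to 0.

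Set side by side, the brown fat genes Ucp1 and Cidea stood at -1.17 and -0.95. The genes common to all fat spread from -1.06 for Car3, -0.90 for Plin1 and -0.85 for Adipoq to -0.27 for Cfd, -0.21 for Fabp4 and -0.19 for Pparg. Their median was -0.56 over 6 genes, against a mean of -1.06 for the 2 brown fat genes. The difference between the brown fat genes and the common genes was not tested, and Car3 lay between Ucp1 and Cidea. In processed signals, both mutant values were below both WT values for 8 of the 9 measured genes, against 20.3% of all genes.

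The upstream sequence of 3 of the genes that were 1.5-fold lower is shown as a description. Whether a shared regulator had a part in their ratios was not tested. RefSeq promoter windows of 300 bases on GRCm38.p6, reaching from 250 bases before to 50 bases after the start site, matched 7 of the 10 genes, in 9 windows. The 250 bases before the start site are printed 5′ to 3′ on the gene's strand, with matches to AGGTCA, TTNNGCAA and CCAAT on either strand in capitals:
Ucp1, chr8:83290098-83290347, plus strand: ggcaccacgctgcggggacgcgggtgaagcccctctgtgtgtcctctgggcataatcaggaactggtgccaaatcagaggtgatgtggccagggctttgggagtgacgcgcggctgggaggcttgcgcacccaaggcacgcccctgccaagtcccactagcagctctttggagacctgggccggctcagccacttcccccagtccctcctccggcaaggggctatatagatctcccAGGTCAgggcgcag
Plin1, chr7:79732777-79733026, minus strand: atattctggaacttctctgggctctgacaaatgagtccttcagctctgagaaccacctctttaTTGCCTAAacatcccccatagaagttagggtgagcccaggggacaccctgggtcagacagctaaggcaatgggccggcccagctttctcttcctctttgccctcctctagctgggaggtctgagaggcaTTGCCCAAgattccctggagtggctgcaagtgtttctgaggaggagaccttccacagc
Adipoq, chr16:23146286-23146535, plus strand: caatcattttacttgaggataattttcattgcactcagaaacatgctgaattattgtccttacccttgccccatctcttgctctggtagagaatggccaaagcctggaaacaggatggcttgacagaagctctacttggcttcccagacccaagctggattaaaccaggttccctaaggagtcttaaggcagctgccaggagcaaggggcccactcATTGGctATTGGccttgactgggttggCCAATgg

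AGGTCA is the core motif of many nuclear receptors, and it stood once in the Ucp1 window, starting 14 bases before the start site. It was found in 16.3% of all 32851 such windows. TTNNGCAA, a motif of the C/EBP factors, stood at 2 places in the Plin1 window and in 10.8% of all windows. CCAAT stood at 3 places in the Adipoq window and in 37.4% of all windows. AGGTCA, TTNNGCAA and CCAAT were also found in windows of Pparg, which was only slightly lower. TTNNGCAA stood in the window of Lep, which was not measured. The windows of Retn and Cfd held none of these motifs. The motif of PPAR with RXR, a direct repeat of AGGTCA with 1 base between the copies, so that it overlaps AGGTCA, was in none of the 9 windows and in 0.0396% of all. Neither TATAAA, found in 13.6% of all windows, nor TGACGTCA, found in 1.79%, was in the windows of Ucp1, Plin1 or Adipoq. These matches describe the letters of the windows, which are short beside the regulatory regions of these genes.

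Fat pathway genes outside the 10 were read from 14 lists, and few of them lay as far from 0. Some lists, such as the respiratory chain and the carbonic anhydrases, hold whole families and are not particular to fat cells. Of 189 other genes listed, 180 were measured, with a median ratio of -0.04. Of these, 79 were lower and 52 higher on both arrays, and none was 2-fold apart in either direction. By the scanner's own ratios, however, Lhx8 was more than 2-fold lower on both arrays. At 1.5-fold 4 were lower (Lhx8, Cidec, Dlk1 and Car15, the last from the carbonic anhydrase list) and 1, Rbp4, was higher. Cidec encodes a lipid droplet protein of fat cells that lets droplets grow. It gave 573 and 534 in the mutant pool, against 1071 and 967 in the WT pool, with a ratio of -0.81 ± 0.07 (SD, n = 2 arrays). Dlk1 encodes preadipocyte factor 1, found on fat cell progenitors and on other fetal cells. It gave 2448 and 2378 in the mutant pool, against 5024 and 4303 in the WT pool, a ratio of -0.93 ± 0.12 (SD, n = 2 arrays). Rbp4 encodes the plasma carrier of retinol, made by liver and fat, and stood at 0.81 with signals of 3696 and 3336 in the mutant pool, against 2091 and 1911 in the WT pool.

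In the brown fat and thermogenesis list, 14 genes other than Ucp1 and Cidea were measured, with a median of -0.14. On both arrays 8 were lower and 2 higher. Lhx8 encodes a homeodomain protein and was listed here as a marker of brown fat. With the scanner's own ratios Lhx8 stood at -4.16, against -1.27 for Ucp1 and -0.98 for Cidea. The oocyte and ovary list, described below, had a median of -3.31 with those ratios. Its genes ran from -5.10 for Dppa3 to -1.37 for Ooep, a range that holds Lhx8 but not Ucp1 or Cidea. Which cells gave the Lhx8 signal was not tested. Lhx8 signals were 3.57 and 2.81 in the mutant pool, not well above background on either array, against 61.7 and 52.2 in the WT pool. It was at least 1.79-fold lower, counted against the lowest signal of any probe well above background or the probe's own where that was higher. Cox8b, a subunit of cytochrome oxidase found in brown fat and striated muscle, gave 420.2 and 379.9 in the mutant pool and 713 and 612 in the WT pool, a ratio of -0.66. Prdm16, a coregulator of brown fat identity, stood at -0.46, with 2988 and 2559 in the mutant pool and 4072 and 3578 in the WT pool. The 2 genes higher on both arrays were Slc25a20 at 0.12 and Otop1, a dim probe, at 0.24. Cpt1b at -0.03 was near 0, and Ppargc1a, Cox7a1 and Dio2 differed in sign between the arrays. Elovl3 and Adrb3 were not measured.

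In the lipid droplet and lipolysis list, 20 other genes had a median of -0.05, with 11 lower and 5 higher on both arrays. After Cidec, the lipid droplet coat protein gene Plin4 was lowest, at -0.48. Of 15 other genes of fatty acid uptake and glycerol handling, 6 were lower and 5 higher on both arrays, with a median of -0.01. Acsl1, an acyl-CoA synthetase, stood at -0.38 and Slc27a4, a fatty acid transport protein, at 0.36. In the lipogenesis list, 17 genes had a median of -0.03, with 6 lower and 6 higher. Thrsp, a regulator of lipogenesis also called Spot 14, stood at -0.64 and the desaturase Scd1 at -0.44.

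Of 20 other adipogenic transcription factors and coactivators, 11 were lower and 5 higher on both arrays, with a median of -0.08. The early B cell factors, which take part in fat cell formation, were among the lowest, with Ebf3 at -0.60 and Ebf1 at -0.48. Klf5, a zinc finger factor of epithelia and fat cell progenitors, stood at 0.57. The 11 other adipokines had a median of -0.09, with 6 lower and 4 higher. Nampt stood at -0.38 and Lcn2 at 0.45. The 11 adipokine and lipolytic receptors had a median of -0.03, with 6 lower and 5 higher, Adrb1, a beta adrenergic receptor, at -0.49, the leptin receptor Lepr at -0.40 and the adenosine receptor Adora1 at 0.42.

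The white fat list had a median of -0.05 over 9 other genes, 5 lower and 3 higher, with Nrip1 at -0.24. The beige fat list had a median of 0.02 over 6, 2 lower and 2 higher, with Slc36a2 at -0.45 and P2rx5 at 0.40. Fat progenitors and stroma had a median of -0.05 over 11, 5 lower and 4 higher, Dlk1 included. The alternative complement pathway, in which factor D acts, had a median of -0.08 over 6 genes other than Cfd, 4 lower and 1 higher, with factor B (Cfb) at -0.24. Uncoupling and fatty acid oxidation genes had a median of -0.01 over 14 other than Ucp1, 6 lower and 6 higher, with Etfa at -0.48 and Cpt2 at 0.30. The respiratory chain had a median of -0.03 over 20, with 2 lower and 2 higher on both arrays. Carbonic anhydrases other than Car3 had a median of -0.01 over 15, 6 lower and 3 higher, with Car15 at -0.74 and Car4 at -0.42.

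**Figure D4:**
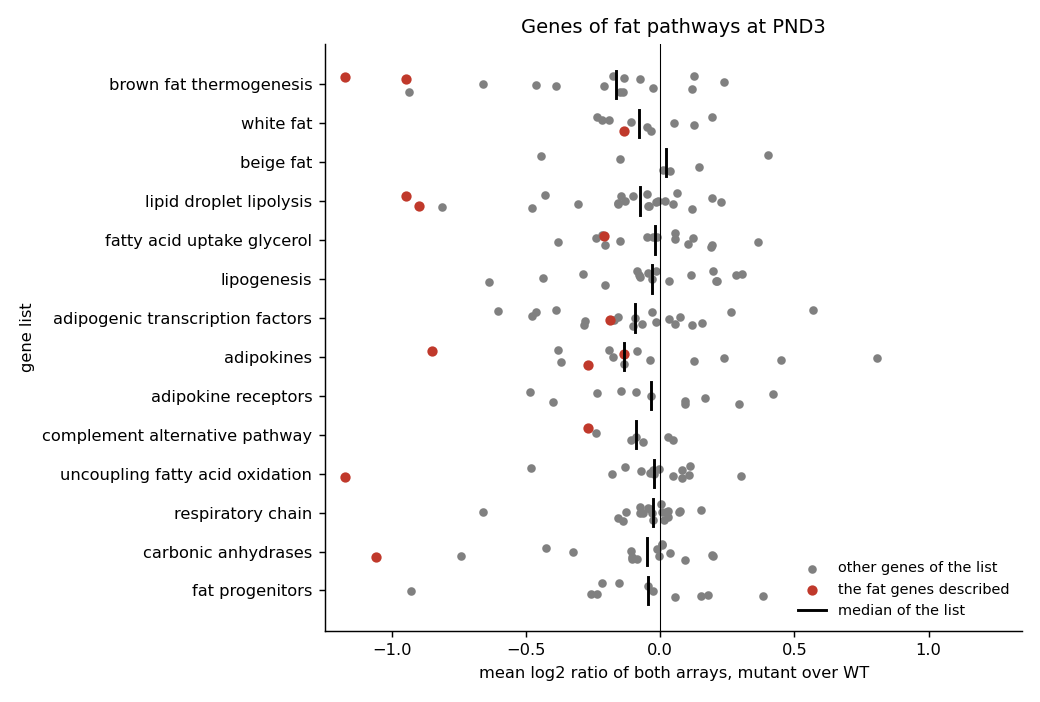
Mean log2 ratio of mutant over WT on both arrays (horizontal axis) for the measured genes of 14 fat pathway lists (rows), with the fat genes described in red, other genes in grey and a black bar at each list's median, the described genes included. The list medians lie between -0.16 and 0.02, and the red points of Ucp1, Car3, Cidea, Plin1 and Adipoq lie apart from most grey points of their lists.

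Markers of other cell types that hold some of these transcripts, or that could be in the same RNA, were read alongside. For skeletal muscle, which also has Car3 and Cox8b, 19 of 20 markers were measured, with a median of -0.02, 8 lower and 5 higher on both arrays. Their summed signals were 13680 and 12145 in the mutant pool, against 12749 and 11324 in the WT pool. Actc1, an actin of heart and developing muscle, made up most of these sums, with 7932 and 7249.7 in the mutant pool, against 7178 and 6328 in the WT pool and a ratio of 0.16. The myosin heavy chains Myh8 and Myh2 were dim and stood at -0.39 and -0.28, and the troponin gene Tnni1 at 0.40. Liver markers, 10 of 12 measured, had a median of -0.06, but their sums were 27106 and 24506 in the mutant pool and 39168 and 37408 in the WT pool, of which Afp gave the most, and Ttr stood at -0.99 and Ahsg at 1.64. Endothelium, which also has Fabp4, had 12 of 12 measured with a median of -0.06 and sums of 93711 and 83816 in the mutant pool, against 97417 and 89506 in the WT pool. Leukocytes, some of which also have Fabp4 and Pparg, had 15 of 15 measured, 13 of them lower on both arrays, with a median of -0.17 and sums of 27537 and 25343 in the mutant pool and 33524 and 30182 in the WT pool.

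All 12 mesenchyme markers were measured, with a median of -0.27. On both arrays 7 were lower and 1, Thy1 at 0.31, was higher, and 4 differed in sign between the arrays. Lum at -0.86 and Dpt at -0.74 were 1.5-fold lower and none was 2-fold lower. The list had sums of 254358 and 246383 in the mutant pool and 303359 and 269955 in the WT pool. Erythroid markers, 4 of 8 measured, had a median of -0.43, with sums of 57267 and 57461 in the mutant pool and 82282 and 77752 in the WT pool. Nerve and Schwann cell markers, 9 of 10 measured, had a median of -0.0047, with S100b, which fat cells also make, at -0.64 and sums of 10069 and 8768 in the mutant pool and 10639.9 and 9968 in the WT pool. Adrenal cortex markers, 7 of 10 measured, had a median of -0.02 and sums of 5166 and 4299 in the mutant pool and 6041 and 5500.4 in the WT pool. Kidney nephron markers had a median of -0.06 and sums of 511490 and 489132 in the mutant pool and 594332 and 564194 in the WT pool. Acinar markers summed to 2133 and 1852 in the mutant pool and 2201 and 1923 in the WT pool, with a median of -0.02, and islet markers, 8 of 14 measured, to 5547 and 5273 in the mutant pool and 6792 and 5733 in the WT pool, with a median of -0.05. The oocyte and ovary list, 13 of 15 measured, had a median of -1.34, with all 13 lower on both arrays. That median was -3.31 with the scanner's own ratios and -2.57 at an offset of 0. The list had sums of 648 and 623 in the mutant pool, against 4049.9 and 3695 in the WT pool. The pools thus differed in markers of several tissues, and their part in the fat gene ratios was not tested.

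Among genes outside all lists, the 5 with ratios nearest to the fat genes' median on both arrays (-0.77 and -0.93) were found by distance over these 2 values. They were Chil1 at -0.88, Aass, an enzyme of lysine breakdown, at -0.81, and 3 probes without a RefSeq symbol. Chil1 was dim, with signals of 37.3 and 33.9 in the mutant pool, against 127 and 114 in the WT pool, and Aass gave 1616 and 1323 in the mutant pool, against 2813 and 2455 in the WT pool. Likeness over 2 technical arrays describes little more than a similar ratio.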

How the data were processed

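RNA labelled as pancreas of PND3 pups was measured on 2 dye-swapped arrays from 500 ng per labelling, per the labels. Per the file headers, Agilent Feature Extraction (9.1.3.1 in the header, 8.1 in the submitters' processing notes) gave spot and background intensities, processed signals and log10 ratios of Cy5 over Cy3. A deposited value table gives log2 mutant over WT ratios, a direction found by setting it against the scanner ratios (r = 1.00 on both arrays). Spot flags came from the same scanner output, per the file headers. Intensities were corrected by normexp (offset 50) and loess within arrays (limma 3.58.1, R 4.3.3), with the sign turned where mutant RNA was in Cy3. The steps were tested on simulated data. Outlier spots (40) were left out, and spots of a probe were averaged. A probe was well above background if at least 50% of its spots were. The brightest passing probe stood for a gene. By accession, 22917 of 41136 probes matched a RefSeq symbol, and the rest go by their deposited names.

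The members, the 14 fat lists and the 12 lists of other cell types were chosen with earlier results of these data known. Named genes were the members, up to 4 genes per list with the largest ratios of 1 sign on both arrays, and the 5 nearest genes. Some of these are given only within counts. Other probes, spots and genes named were singled out after their values were seen. Alternatives changed the ratios used, background correction, offset, normalization, arrays, outlier spots, probe rule and filter. No depth exists for arrays, and 1 pool per genotype limits the precision. Cidea has no sequence printed here.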

Additional observations from a re-analysis of the deposited data

How the results depend on the processing

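No paired analysis was possible because each ratio already sets both pools against each other within 1 array, the labels number no PND3 samples, and no test was made. All 90 values of the 9 measured genes over the alternatives were below 0. Ucp1 ran from -1.34 to -1.13 and Cidea from -1.13 to -0.88. The median of the 9 genes, -0.85, was -1.01 with median centring, a scaling that put the median of all genes at -0.11. It was -0.57 with the mean of a gene's probes, where Car3 stood at that value and 4 of 9 genes were 1.5-fold lower. Without 1 array in turn the median ran from -0.93 to -0.77. Genes lower by 2-fold were 1 of 9 (Ucp1) with the mean of probes, and 2 to 4 with 1 array left out. They were 4, with Cidea and Plin1 added, from the array that had mutant RNA in Cy5. Of all genes, 46 were 2-fold lower from that array and 39 from the other, against 33 on both. Over all genes 40 were called 2-fold apart, 176 with the scanner's ratios and with the value table, 100 at an offset of 0 and 70 at an offset of 16. Genes 1.5-fold lower were 131, and 409 with either the value table or scanner ratios, 291 at an offset of 0, 255 with median centring, 201 at an offset of 16, and 180 to 231 with 1 array left out. Among the other fat list genes 4 were 1.5-fold lower. There were 8 with the scanner's ratios, the value table and median centring, 7 at an offset of 0, and 7 to 8 with 1 array left out. Of the 14 fat list medians, 6 lay on both sides of 0 over the alternatives. The cause was not tested. The E15.5 alternatives were not run, because probe sets were not paired with genes. Signals near background limit what can be said of Lep and Retn.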
